A study of Homo sapiens with 6 samples.

Results

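The genes described here build the autophagosome, fill and bound the lysosome, and encode the vacuolar H+-ATPase (V-ATPase) that acidifies it. They were taken as every probe set whose annotated gene symbol, current or older, was 1 of 36 listed symbols, or started with ATP6V. The rule found all 36 listed symbols, and gave 104 probe sets of the 22215 tested, which stood for 53 of 11963 genes. There were 23 autophagosome genes (44 probe sets), 13 lysosomal genes (27 probe sets) and 17 V-ATPase genes (31 probe sets). The other 2 probe sets, 200041_s_at and 212384_at, carry the readthrough symbol ATP6V1G2-DDX39B beside that of the RNA helicase DDX39B. They were counted as members but stood for no V-ATPase gene.

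Levels were measured on 6 Affymetrix oligonucleotide arrays with RNA from SH-SY5Y, an established human neuroblastoma line often used in place of neurons. The medium of 3 flasks held free bilirubin (Bf) at 140 nM for 4 h (Bf 140 nM), and that of 3 flasks held only the solvent, dimethyl sulfoxide, at 0.6% for 4 h (DMSO 0.6%). The comparison addresses whether unconjugated bilirubin (UCB), the heme breakdown product that injures neurons, is met by an early change of transcript levels. Both groups share the cell line, the time and, per the methods, the solvent, since UCB was dissolved in DMSO. All values are the deposited normalised levels, taken to be log2, and a difference is Bf 140 nM minus DMSO 0.6% on that scale. Levels of different probe sets depend on their probes, so levels are compared only within a probe set. In bulk RNA, fewer cells of a kind and less RNA per cell cannot be told apart.

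Macroautophagy wraps cytoplasm in a double membrane. The ULK kinases start the process, a lipid kinase built around PIK3C3 and BECN1 marks the membrane, and a ubiquitin-like conjugation system attaches ATG8 proteins such as LC3 to it. Cargo receptors such as SQSTM1 (p62) bind both ubiquitinated cargo and ATG8 proteins. The finished vesicle fuses with the lysosome, where cathepsins and glycosidases work at the low pH that the V-ATPase maintains. Neurons depend on this route to clear aggregated proteins and worn organelles. The transcription factor TFEB and its relatives activate many lysosomal and autophagy genes through a short promoter sequence, GTCACGTG with AC often following, that holds the E-box CACGTG.

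Members were chosen by symbol and not by that sequence. Since the sequence is known from lysosomal and autophagy genes, its share among members is a description and not an independent result. RefSeq promoters of 300 bases (250 before and 50 after the annotated start, GRCh38.p14) were at hand for 43 of the 53 genes. The letters GTCACGTG, searched on both strands, occurred in 7 of these 43 (16.3%), and in 2.53% of all 27305 promoters in the table. In fixed lists of other genes of these pathways they occurred in 5 of 30 autophagy promoters (16.7%), 5 of 31 lysosomal (16.1%) and 2 of 9 proton pump promoters (22.2%). The share was therefore not particular to the members. By member group the letters occurred in 1 of 22 autophagosome promoters, 3 of 9 lysosomal promoters and 3 of 12 V-ATPase promoters. The 6-letter core CACGTG, which every GTCACGTG contains, was found in 8 of the 43 (18.6%) and in 7.43% of all promoters, and GTCACGTG followed by AC in 1 (2.33%) and 0.381%. The 7 matches are shown because these are the members whose promoter holds the letters of the TFEB-type element. Each line gives up to 20 bases on either side of the leading match, 5′ to 3′ on the strand of the gene and ending at the annotated start at the latest, with the match in capitals.
ATG3, chr3:112561963-112562002, minus strand: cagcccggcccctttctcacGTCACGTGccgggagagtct
CTSA, chr20:45891271-45891318, plus strand: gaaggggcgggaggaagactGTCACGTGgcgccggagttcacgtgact
CTSD, chr11:1763947-1763994, minus strand: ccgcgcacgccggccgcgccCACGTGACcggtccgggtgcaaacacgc
LAMP1, chr13:113297025-113297072, plus strand: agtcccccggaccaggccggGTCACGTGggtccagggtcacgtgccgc
ATP6V0B, chr1:43974881-43974928, plus strand: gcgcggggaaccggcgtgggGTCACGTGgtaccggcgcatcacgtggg
ATP6V0D1, chr16:67481191-67481238, minus strand: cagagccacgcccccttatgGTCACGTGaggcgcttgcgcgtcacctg
ATP6V1G1, chr9:114587689-114587736, plus strand: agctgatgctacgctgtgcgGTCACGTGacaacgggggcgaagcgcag
In CTSD the match lies on the other strand and so reads CACGTGAC. LAMP1 held 6 matches in its 300 bases and ATG3 and CTSA held 2 each. ATP6V1G1 was the member in which AC follows, so its single site reads the same on both strands and was matched on each. A match describes the letters and does not show that a factor binds there.

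On all 6 arrays, 11 of 13 measured noradrenergic neuroblast markers were above the array median, and the exceptions were TH and HAND2. Of 11 mesenchymal or Schwann-like markers 6 were. The mean level of the latter was 8.58 to 8.70 in Bf 140 nM and 8.56 to 8.75 in DMSO 0.6%. DMSO replicate 3 stood apart. Its 3′ minus 5′ difference of the beta-actin control probe sets, which grows as RNA breaks or copying stops short of the 5′ end, was 2.21, against 0.10 to 0.89 on the other arrays, and that of GAPDH was 1.30 against 0.10 to 0.38. Bf replicate 2 had the narrowest interquartile range, 2.25 against 2.33 to 2.66. An exact two-sided permutation test of the group means gave p = 0.9 for beta-actin and 0.8 for the interquartile range. With 3 arrays per group the smallest possible p is 0.1, so no difference could have been detected at 0.05. The test also does not address a single deviating array.

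No autophagy, lysosomal or V-ATPase probe set passed the test between Bf 140 nM and DMSO 0.6% at 4 h. By limma with Benjamini-Hochberg adjustment over all probe sets, 0 of 104 passed an adjusted p of 0.10, where 0% of all probe sets passed, and the adjusted p was 1.00 for each. At an unadjusted p under 0.05 there were also 0 of 104, where 0.0765% of all probe sets (17) were counted, 0.045% higher and 0.0315% lower in Bf 140 nM. With no change at all, a proportion of about 0.05 of the probe sets (a fraction, not a percentage) would be expected at this level. This is far more than the 17 counted, so the p-values of this unpaired fit ran high. The reason was not tested, and 0 of 104 does not show that no member changed. The differences were small. They ran from -0.23 to 0.55 over the probe sets, and from -0.22 to 0.33, at most 1.26-fold, over the genes when each was represented by its brightest probe set with 1 symbol. The 95% confidence interval lay within 2-fold on this scale for 52 of 53 genes, and within 1.5-fold for 44 of 53 (83.0%), against 88.1% of all genes. Dim probe sets have a compressed scale, on which folds are understated.

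More members were above 0 than below. The count was 42 of 53 genes (79.2%), with a median difference of 0.08, where 63.7% of all genes were above 0 and their median was 0.03. Of the 104 probe sets 81 were above 0 (77.9%), where 63.2% of all probe sets were. Members were mostly bright: 47 of 53 lay above the median probe set. Among all 6848 genes above that level 69.4% were above 0 with a median of 0.05, and among those 47 members 80.9% were, with a median of 0.08. The excess depended on single arrays. Without DMSO replicate 3 the count was 33 of 53 (62.3%) and the median 0.04, where 56.3% of all genes were above 0. Without Bf replicate 3 the count was 30 of 53 (56.6%) and the median 0.01, against 58.8% of all genes, and without Bf replicate 2 it was 45 of 53 (84.9%) and 0.15, against 61.2%. With the beta-actin 3′ minus 5′ difference as a covariate it was 41 of 53 (77.4%) and 0.06, against 62.4%.

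**Figure D1:**
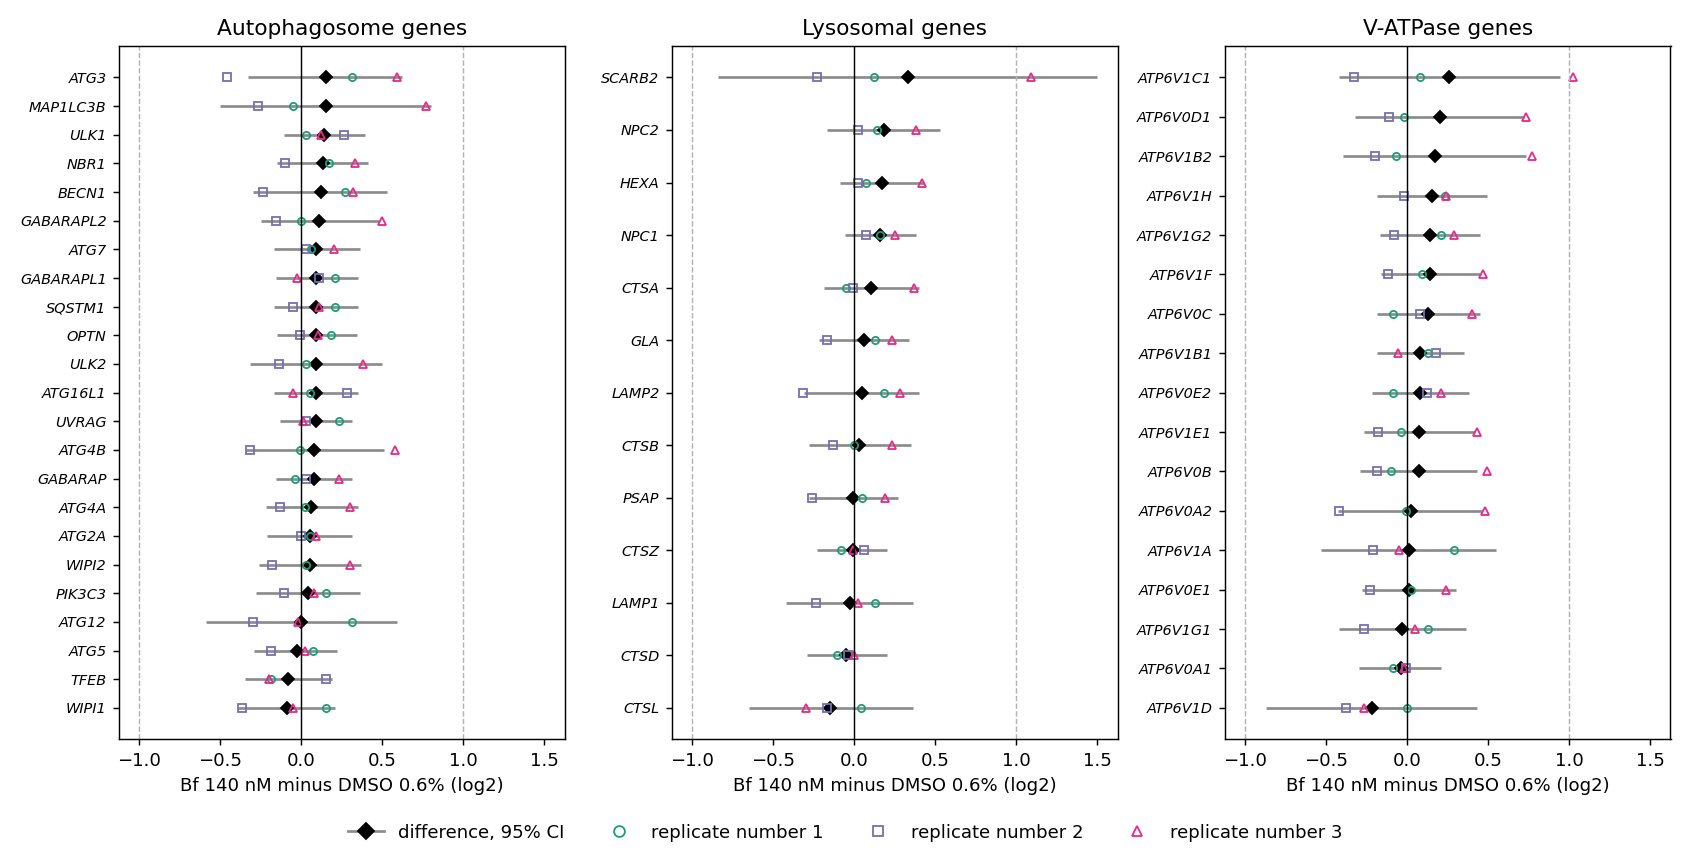
Difference between Bf 140 nM and DMSO 0.6% (log2, horizontal axis) for the 53 genes in 3 groups, each by 1 probe set; diamonds and bars give the difference and its 95% confidence interval from limma, open symbols the difference within replicate numbers 1, 2 and 3, and dashed lines 2-fold. All 53 intervals include 0, and only that of SCARB2 crosses a dashed line.

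Among the autophagosome genes 20 of 23 had a difference above 0 (87%, against 63.7% of all genes), with a median of 0.09 and a range of -0.09 to 0.15. None passed the test. Without Bf replicate 3 the count above 0 was 15 of 23 (65.2%, against 58.8% of all genes). Without DMSO replicate 3 it was 16 of 23 (69.6%, against 56.3%). The initiating kinases were both above 0. ULK1 stood at 8.87, 8.97 and 8.77 in Bf replicates 1, 2 and 3, and at 8.84, 8.71 and 8.64 in the DMSO replicates. The lowest Bf value thus lay below the highest DMSO value, and the difference was 0.14 (SE 0.10, n = 3 each), positive within all 3 replicate numbers. Its paralog ULK2 was at 0.09 (SE 0.17), with -0.14 within replicate 2 and 0.38 within replicate 3. In the lipid kinase complex, the scaffold BECN1 was at 0.12 (SE 0.18), the catalytic subunit PIK3C3 at 0.04 (SE 0.14) and UVRAG, which joins BECN1 in the endosomal form of the complex, at 0.09 (SE 0.09).

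WIPI1 binds the lipid that PIK3C3 makes, and its 2 probe sets pointed in different directions. With 203827_at the levels were 8.27, 8.22 and 7.91 in Bf 140 nM and 7.99, 8.14 and 7.69 in DMSO 0.6%, a difference of 0.20 (SE 0.15). The brighter 213836_s_at gave 8.18, 8.07 and 8.09 against 8.02, 8.44 and 8.14, a difference of -0.09 (SE 0.13). Both sets of values overlapped between groups, and DMSO replicate 2 was the highest array in the latter. WIPI2, the family member that recruits ATG16L1, was at 0.05 (SE 0.13), and the lipid transfer protein ATG2A was also at 0.05 (SE 0.11).

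The conjugation genes had a median of 0.09 with their brightest probe sets, and 4 of 5 were above 0. ATG3, the E2-like enzyme, was at 0.15 (SE 0.20) and ATG7, the E1-like enzyme, at 0.09 (SE 0.11). ATG16L1, which places the E3-like complex on the membrane, was at 0.09 (SE 0.11), ATG12 at 0.00 (SE 0.25) and its partner ATG5 at -0.03 (SE 0.11). For ATG5 the dimmer 210639_s_at stood at 8.93, 8.77 and 8.87 in Bf 140 nM and at 8.65, 8.98 and 8.26 in DMSO 0.6%, a difference of 0.23 (SE 0.18). DMSO replicate 2 exceeded every Bf array there, and DMSO replicate 3 lay below all the others. For ATG12 the dim 213930_at stood at 7.64, 7.30 and 7.64 against 7.21, 7.50 and 7.34 (0.17, SE 0.13), again with overlap. The proteases that trim ATG8 proteins were at 0.06 (SE 0.12) for ATG4A and 0.08 (SE 0.18) for ATG4B.

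All 4 ATG8 genes had differences between 0.08 and 0.15. GABARAP was at 0.08 (SE 0.10), GABARAPL2 at 0.11 (SE 0.16) and MAP1LC3B, which encodes the common autophagosome marker LC3B, at 0.15 (SE 0.28). For MAP1LC3B, DMSO replicate 3 was the lowest of the 6 arrays at 10.32, and the other 5 lay between 11.08 and 11.39. GABARAPL1, an ATG8 gene that the study discusses, stood at 7.69, 7.78 and 7.52 in Bf 140 nM and at 7.49, 7.67 and 7.56 in DMSO 0.6%. This is a difference of 0.09 (SE 0.11), or a ratio of 1.07 (95% CI 0.894 to 1.28). Its other probe set was at -0.13 (SE 0.13), and 211458_s_at, annotated to GABARAPL1 together with its pseudogene GABARAPL3, at -0.07 (SE 0.18). All 3 were below the median probe set, where folds are compressed.

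Among the cargo receptors, SQSTM1 stood at 10.02, 10.06 and 9.96 in Bf 140 nM and at 9.81, 10.11 and 9.85 in DMSO 0.6% with its bright probe set. The 3 Bf values lay above DMSO replicates 1 and 3 and below DMSO replicate 2, and the ratio was 1.07 (95% CI 0.888 to 1.28). The dim probe set 213112_s_at did not overlap between groups, with 7.97, 7.90 and 7.92 against 7.89, 7.88 and 7.86, yet the difference was 0.06 (SE 0.09). NBR1 was at 0.13 (SE 0.12) and OPTN at 0.09 (SE 0.10). TFEB stood at 7.96, 8.05 and 7.79 in Bf 140 nM and at 8.15, 7.89 and 7.99 in DMSO 0.6%, a difference of -0.08 (SE 0.12). Its other probe set gave -0.08 as well, and both probe sets were negative within replicates 1 and 3 and positive within replicate 2. Neither lay above the median probe set, and folds of dim probe sets are compressed.

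**Figure D2:**
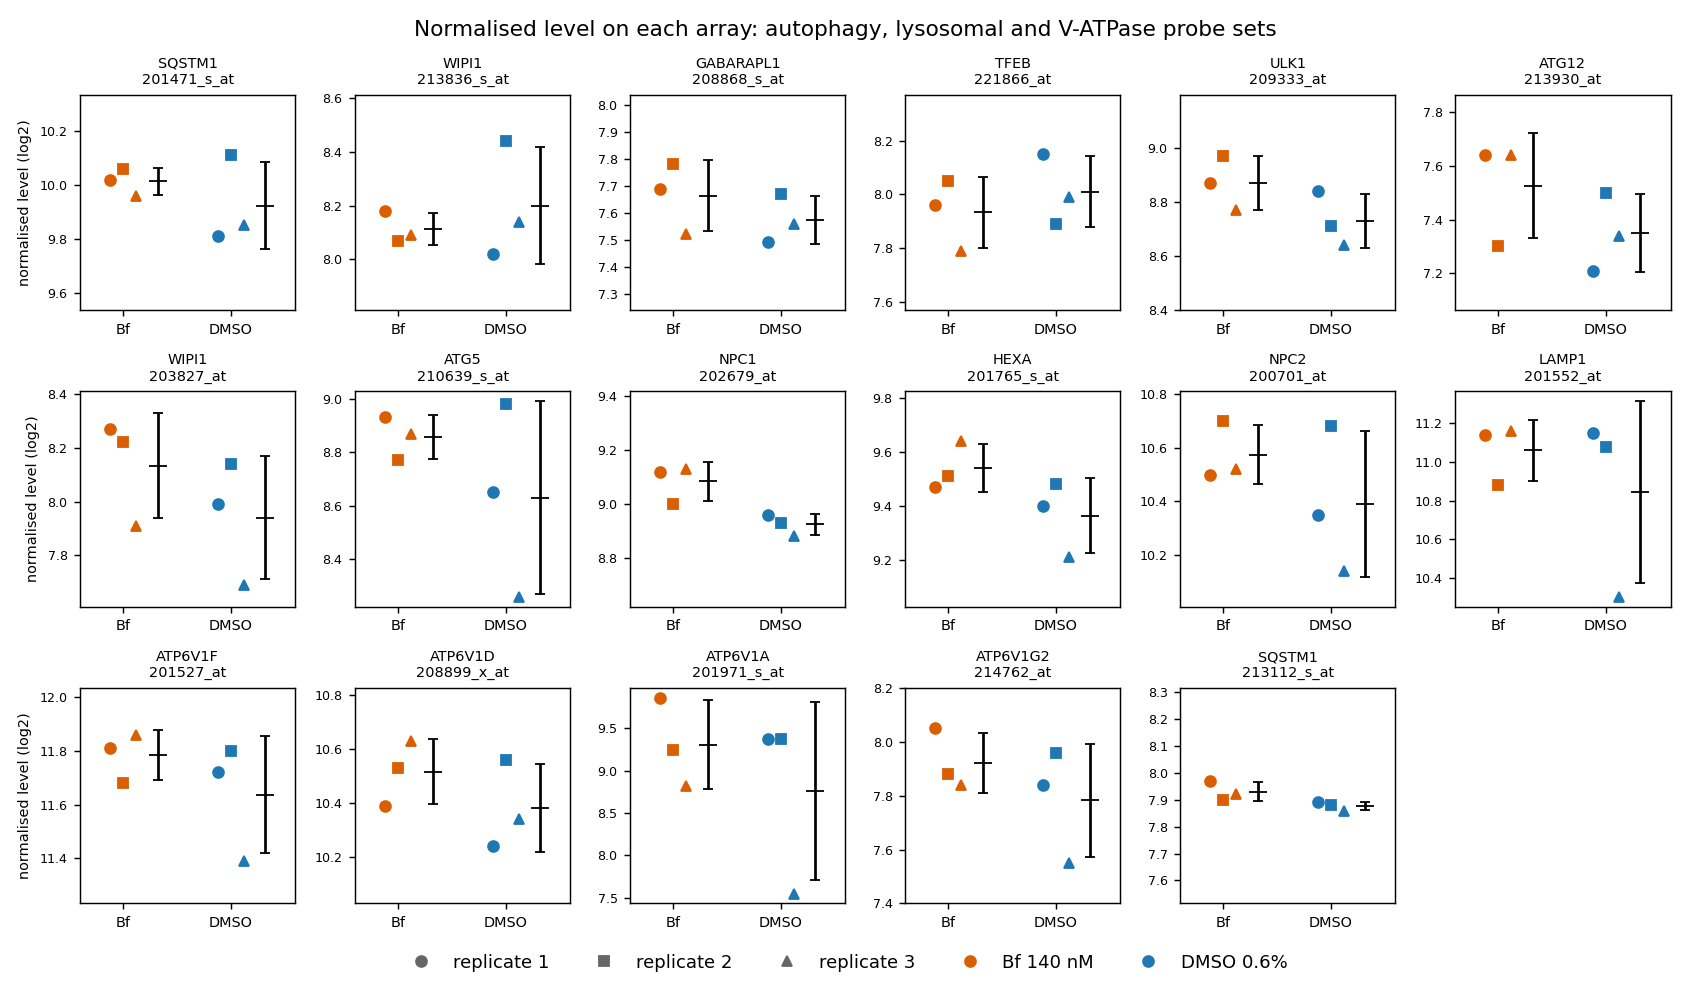
Normalised level (log2, vertical axis, each panel with its own scale) of 17 probe sets on each array, orange for Bf 140 nM and blue for DMSO 0.6%, with a marker shape for each of replicates 1 to 3 and bars for the mean and SD of 3 arrays. Only NPC1 and SQSTM1 213112_s_at do not overlap between groups, and DMSO replicate 3 is far below the others for LAMP1 201552_at and ATP6V1A 201971_s_at.

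For the lysosomal genes the median difference was 0.05 and 8 of 13 were above 0 (61.5%, against 63.7% of all genes). None passed the test. NPC1, the membrane protein that exports cholesterol from the lysosome, separated the groups. It stood at 9.12, 9.00 and 9.13 in Bf 140 nM and at 8.96, 8.93 and 8.88 in DMSO 0.6%, so that every Bf array lay above every DMSO array. The difference was 0.16 (SE 0.09), a ratio of 1.12 (95% CI 0.960 to 1.30), and ranged from 0.14 to 0.20 when each array was left out in turn. With quantile normalization it was 0.09. Its dimmer probe set 217584_at gave 0.08 (SE 0.14) and overlapped. Over all members 2 of 104 probe sets (NPC1 and SQSTM1 213112_s_at) were higher without overlap and 0 were lower, where 1.68% and 0.981% of all probe sets were. The members' share was therefore near the background.

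NPC2, the soluble partner that hands cholesterol to NPC1, stood at 10.50, 10.70 and 10.52 in Bf 140 nM and at 10.35, 10.68 and 10.14 in DMSO 0.6%, a difference of 0.18 (SE 0.15). HEXA, a subunit of the hexosaminidase that degrades GM2 ganglioside, stood at 9.47, 9.51 and 9.64 against 9.40, 9.48 and 9.21 (0.17, SE 0.11). For both genes the difference was positive within all 3 replicate numbers and largest within replicate 3, at 0.38 and 0.42. Without DMSO replicate 3 it was 0.06 for NPC2 and 0.10 for HEXA. The alpha-galactosidase GLA was at 0.06 (SE 0.12) and PSAP, the precursor of the saposins that present lipids to hydrolases, at -0.01 (SE 0.12).

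Of the lysosomal roles the cathepsins had the lowest median, -0.01, and 2 of 5 were above 0. The protective protein CTSA was at 0.10 (SE 0.13) and the cysteine protease CTSB at 0.03 (SE 0.14), while CTSZ was at -0.01 (SE 0.09), the aspartic protease CTSD at -0.05 (SE 0.10) and CTSL at -0.15 (SE 0.22). CTSL stood at 9.71, 9.61 and 10.09 in Bf 140 nM and at 9.68, 9.78 and 10.40 in DMSO 0.6%. Both replicates with number 3 were thus the highest of their groups.

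Of the membrane proteins, LAMP1 and LAMP2, the abundant glycoproteins of the limiting membrane, were at -0.03 (SE 0.17) and 0.05 (SE 0.15). SCARB2 (LIMP-2), which carries glucocerebrosidase to the lysosome, had the largest difference of the 53 genes, 0.33, with an SE of 0.50. It stood at 10.98, 10.92 and 10.25 in Bf 140 nM and at 10.86, 11.15 and 9.16 in DMSO 0.6%. The replicate differences were 0.12, -0.23 and 1.09, so the mean rested on the pair that holds DMSO replicate 3.

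Of the V-ATPase genes 14 of 17 were above 0 (82.4%, against 63.7% of all genes), the median was 0.08, and none passed the test. Without DMSO replicate 3 the count was 8 of 17 (47.1%, against 56.3% of all genes) and the median 0.00, and without Bf replicate 3 they were 9 of 17 (52.9%, against 58.8%) and 0.01. The pump joins a cytosolic V1 sector, which hydrolyses ATP, to a membrane V0 sector, which carries protons. For the 10 V1 genes the median was 0.11 and for the 7 V0 genes 0.07. ATP6V1F, a subunit of the central rotor, stood at 11.81, 11.68 and 11.86 in Bf 140 nM and at 11.72, 11.80 and 11.39 in DMSO 0.6% (0.14, SE 0.13), from a probe set also annotated to LOC101927180. ATP6V1G2, the G isoform of neurons, stood at 8.05, 7.88 and 7.84 against 7.84, 7.96 and 7.55 (0.14, SE 0.13). Both overlapped, with DMSO replicate 3 lowest and DMSO replicate 2 above some or most Bf arrays. Without DMSO replicate 3 both differences were 0.02.

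In the catalytic hexamer, the B subunit ATP6V1B2 was at 0.17 (SE 0.24) and its isoform of acid-secreting epithelia, ATP6V1B1, at 0.08 (SE 0.11) on a dim probe set. Of the stalks and regulators, ATP6V1C1 was at 0.26 (SE 0.29), ATP6V1E1 at 0.07 (SE 0.15), ATP6V1G1 at -0.03 (SE 0.17) and ATP6V1H at 0.15 (SE 0.14). The rotor subunit ATP6V1D was at -0.22 (SE 0.28) with its brightest probe set 208898_at. A probe set of nearly the same brightness, 208899_x_at, stood at 10.39, 10.53 and 10.63 against 10.24, 10.56 and 10.34, a difference of 0.13 (SE 0.12). The sign for this gene therefore depended on the probe set.

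In the V0 sector, the proteolipid ATP6V0C was at 0.13 (SE 0.14) and ATP6V0B, another proteolipid, at 0.07 (SE 0.15). ATP6V0D1, which couples the proteolipid ring to the rotor, was at 0.20 (SE 0.22), with 0.73 within replicate 3 and -0.02 and -0.11 within the others. The large a subunits were at -0.04 (SE 0.11) for ATP6V0A1, the isoform rich in neurons, and 0.02 (SE 0.19) for ATP6V0A2. The small e subunits were at 0.01 (SE 0.12) for ATP6V0E1 and 0.08 (SE 0.13) for ATP6V0E2. The 2 readthrough probe sets were both at 0.01.

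Of the 7 genes with GTCACGTG in the promoter, ATG3 was at 0.15, CTSA at 0.10, CTSD at -0.05 and LAMP1 at -0.03. ATP6V0B was at 0.07, ATP6V0D1 at 0.20 and ATP6V1G1 at -0.03. These values lay within the range of the other members, but each was smaller than its SE (0.10 to 0.22). Promoters were at hand for 43 of the 53 genes. Whether genes with the letters responded differently was not tested, and so few imprecise values cannot show it.

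Probe sets of the same gene diverged most on DMSO replicate 3, and some also on Bf replicate 3. For ATP6V1A, the catalytic A subunit, 201971_s_at stood at 9.86, 9.24 and 8.82 in Bf 140 nM and at 9.37, 9.37 and 7.55 in DMSO 0.6%, a difference of 0.55 (SE 0.51) that was the largest among the members. The brighter 201972_at stood at 10.81, 10.67 and 11.25 against 10.52, 10.89 and 11.31, a difference of 0.01 (SE 0.23). On DMSO replicate 3 the former was thus the lowest of the 6 arrays and the latter the highest, and Bf replicate 3 was likewise the lowest and the highest of the Bf arrays. For LAMP1 the fall was seen in some probe sets. Its 201552_at stood at 11.14, 10.88 and 11.16 against 11.15, 11.08 and 10.30 (0.22, SE 0.23), while the brighter 201553_s_at was at 12.60 on DMSO replicate 3 and between 12.14 and 12.62 on the others. Without DMSO replicate 3 the differences of 201971_s_at and 201552_at were -0.06 and -0.05, and with the beta-actin 3′ minus 5′ difference as a covariate they were 0.22 and 0.09.

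For SCARB2, DMSO replicate 3 stood at 9.16 and 8.13 with 201646_at and 201647_s_at, the lowest array for each, and at 8.08 with 215754_at, within the 7.77 to 8.14 of the other arrays. For the e subunit gene ATP6V0E1 the direction was opposite: 214149_s_at stood at 8.99 on DMSO replicate 3 and at 7.28 to 8.14 elsewhere. Over the 30 member genes with several probe sets of 1 symbol, the range of the replicate difference between probe sets of a gene had a median of 0.15 within replicate 1, 0.16 within replicate 2 and 0.40 within replicate 3. Over all 4310 such genes these medians were 0.16, 0.18 and 0.26. Probe sets of a gene thus parted most within replicate 3, among members and among all genes. The sign of the group difference varied between the probe sets of 13 member genes.

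**Figure D3:**
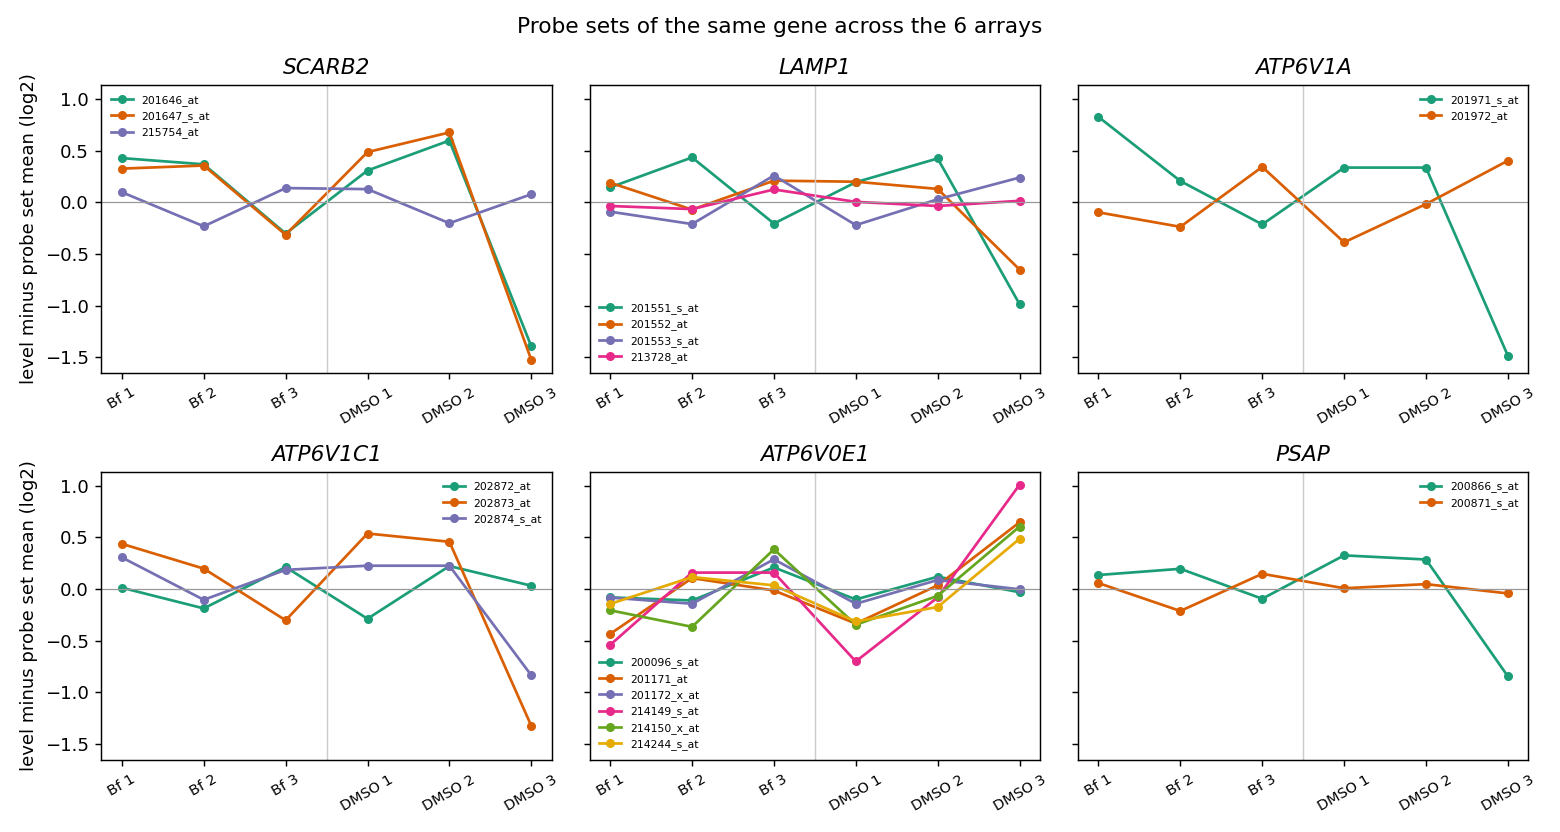
Level of each probe set minus its mean over the 6 arrays (log2, vertical axis) for 6 genes, 1 line per probe set, with the arrays along the horizontal axis. On DMSO replicate 3 probe sets of these genes part: SCARB2 201646_at and 201647_s_at, LAMP1 201552_at and ATP6V1A 201971_s_at are at their lowest there, and ATP6V0E1 214149_s_at is at its highest. The 6 genes are examples and do not stand for all members. Between probe sets, the replicate 3 difference had a range of 0.03 for NPC1 and 0.05 for SQSTM1. The median range over 30 member genes was 0.40.

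DMSO replicate 3 was the lowest of the 6 arrays for 46 of 104 member probe sets (44.2%), where it was lowest for 31.9% of all probe sets. Bf replicate 2 was lowest for 23 (22.1%, against 18.9% of all). Bf replicate 3 was highest for 31 (29.8%, against 19.8%), and Bf replicate 2 for 9 (8.65%, against 26.9%). The shares over all probe sets were not matched for level, and 81 of the 104 member probe sets lay above the median probe set. Within replicate numbers, the median difference of the 53 genes was 0.05 for replicate 1, -0.13 for replicate 2 and 0.23 for replicate 3. The number of genes above 0 was 36, 14 and 42, where 58.8%, 46.5% and 59.3% of all genes were above 0. Replicate 2 therefore ran against the others.

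The 3 groups shared this order. V-ATPase genes had medians of 0.00, -0.18 and 0.29, lysosomal genes 0.07, -0.13 and 0.23, and autophagosome genes 0.06, -0.11 and 0.12. All genes above the median probe set had 0.06, -0.13 and 0.20, close to the values of the 47 members above that level (0.05, -0.16 and 0.24). The difference was positive within all 3 replicate numbers for 9 of 104 probe sets and negative for 2, where 8.96% and 4.7% of all probe sets were. The SD of the 3 replicate medians of all members, 0.18, exceeded their median difference of 0.08.

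**Figure D4:**
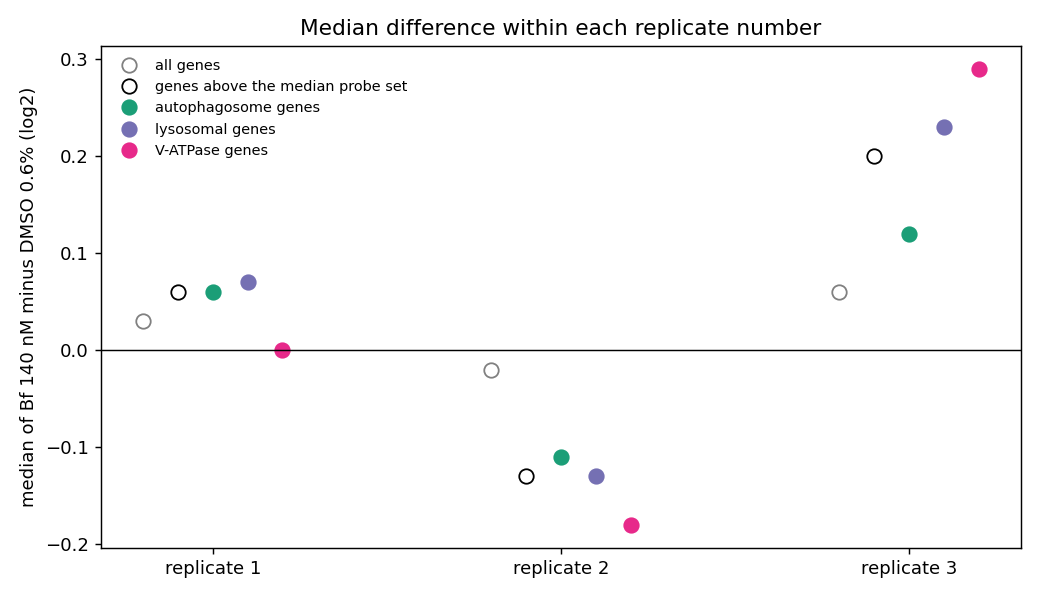
Median over genes of Bf 140 nM minus DMSO 0.6% (log2, vertical axis) within each replicate number, for the 3 member groups (filled) and, as open circles, for all genes and for genes above the median probe set. Every member group is below 0 in replicate 2 and above 0 in replicate 3, as are the genes above the median probe set at -0.13 and 0.20.

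Other genes of the same pathways were read from fixed lists. Of 45 other autophagy genes 36 were measured, and 0 passed the test in either direction, with 0 at an unadjusted p under 0.05. Their median was 0.06 and 26 were above 0 (72.2%, against 63.7% of all genes). The genes with the lowest unadjusted p were MITF, a relative of TFEB (0.16, SE 0.11), the fusion SNARE SNAP29 (0.18, SE 0.13) and CCPG1, a receptor for autophagy of the endoplasmic reticulum (-0.16, SE 0.15). Of 56 other lysosomal genes 43 were measured, 0 passed in either direction and 0 were at an unadjusted p under 0.05. Their median was 0.08 and 32 were above 0 (74.4%). In 4 of the 43 (ACP2, CTSH, GM2A and SLC17A5) every Bf array lay above every DMSO array, where this held for 1.84% of all genes. These 4 differences were 0.08 to 0.14. The acid phosphatase ACP2 was at 0.14 (SE 0.10), the cathepsin CTSH at 0.12 (SE 0.09) and the sialidase NEU1 at 0.21 (SE 0.16). Of 13 other proton pump genes 9 were measured, and again 0 passed and 0 were at an unadjusted p under 0.05. Their median was 0.04 and 7 were above 0 (77.8%). The chloride transporter CLCN7 was at 0.10 (SE 0.10), the pump's accessory subunit ATP6AP2 at -0.15 (SE 0.17) and the pump regulator DMXL1 at 0.12 (SE 0.18).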

How the data were processed

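The deposited values were taken to be on a generalised log2 scale. This was inferred from their range (5.34 to 15.18) and from the normalization named in the methods. Per the methods, the authors computed cell intensities with GCOS and applied variance-stabilizing normalization (justvsn) in R 2.5.0. The step from probes to probe sets was not given in the sources used here. On this scale values are compressed for dim probe sets, so their folds are understated. The table held 22277 probe sets, 62 of them controls. Detection calls were not used here.

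Gene names came from the platform annotation, with symbols updated through Entrez identifiers in RefSeq (GRCh38.p14). For each gene the probe set with 1 symbol and the highest mean over the 6 arrays was taken, or a shared probe set where it had no other (ATP6V1F). Groups were compared with limma 3.58.1 (R 4.3.3), unpaired and two-sided, with Benjamini-Hochberg adjustment over 22215 probe sets at a threshold of 0.10, the FDR of the study, whose own test (SAM) was not run. Lists are described by counts and medians, without a set test. The members and lists were chosen with earlier results of these data known. Values on every array are given for SQSTM1, WIPI1, GABARAPL1 and TFEB, for the 4 probe sets with the lowest unadjusted p in each group, and for those without overlap; CTSL, SCARB2 and further probe sets of the same genes were added after their values were seen.

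Replicate numbers 1 to 3 are shared by the groups in the labels. The deviations of same-numbered arrays from their group means correlated at 0.60, 0.23 and 0.57 over probe sets. Each was above 0.1, so the numbers were taken to pair the arrays. The SEs, intervals and p-values given for the groups nevertheless come from the unpaired fit, so variation shared by same-numbered arrays stays in them. With the replicate number as a block, 92 of all probe sets had an unadjusted p under 0.05, against 17 without it. Data were simulated for this comparison with 22215 probe sets, 200 of them changed, in 20 simulations. In these limma recovered 89.7% of 2-fold and 32.5% of 1.5-fold changes. The 200 were a mix raised by 1.25-, 1.5-, 2- or 3-fold, and the noise was independent between arrays. The real arrays shared variation by replicate number, so recovery in them may differ. Per the methods each treatment had its own flasks and the replicates were independent biological ones, while the labels give replicate numbers. The number of arrays limits the precision. Python 3.11.15 was used for summaries and promoter searches.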

Additional observations from a re-analysis of the deposited data

How the results depend on the processing

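The alternatives were the replicate number as a block in the fit, quantile normalization, median centring, a filter on dim probe sets, an intensity trend, the beta-actin 3′ minus 5′ difference as a covariate, leaving out each array, and other choices of a gene's probe set. The count of members with a difference above 0 was added after seeing the data and was made for all of these but the intensity trend and the choices of probe set. In each fit 0 of the member probe sets tested and 0 of all probe sets tested passed (104 members, or 81 with the filter on dim probe sets); with the replicate block the count was 0, and 92 of all probe sets had an unadjusted p under 0.05, among them 1 member (ATP6V1A 201971_s_at, 0.55, SE 0.20). The medians moved by less than the spread between replicate numbers. When 1 array was left out the median of all member genes ranged from 0.01 to 0.15, that of autophagosome genes from 0.04 to 0.14, of lysosomal genes from -0.02 to 0.15 and of V-ATPase genes from 0.00 to 0.16, and the number of member genes above 0 from 30 to 45. Quantile normalization gave medians of 0.03, 0.03, 0.00 and 0.05 in the same order and 35 of 53 above 0 (66.0%), where 47.7% of all genes were. Centring each array gave 0.05, 0.06, 0.02 and 0.05, with 38 above 0 (71.7%), where 49.5% of all genes were. Of the named probe sets 3 changed sign: LAMP1 201552_at (-0.05 without DMSO replicate 3, up to 0.37 without another array), ATP6V1A 201971_s_at (-0.06 without DMSO replicate 3, up to 0.85) and WIPI1 213836_s_at (0.03 without DMSO replicate 2, down to -0.18). The cause was not tested. With 3 arrays per group limma recovered 32.5% of simulated 1.5-fold changes and 1.8% of 1.25-fold changes, so differences of the size seen in the members would mostly not have been called.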
